A study of Mus musculus with 83 samples.

Results

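Genes known from the hormone-secreting cells of the colon epithelium, though not all confined to them, were followed through mouse life. They were 6 peptide hormone genes (Gcg, Pyy, Nts, Insl5, Sst and Cck) and the serotonin-synthesis gene Tph1. With them were the granule genes Chga and Chgb and the transcription factor gene Neurod1. All were chosen by name, as 10 of the 37764 genes in a count table of RNA-seq from colon tissue. All 10 passed the filter on low counts. The table covers 83 male C57BL/6J/Ukj mice that received no treatment, 16 at 3 months (mo), 16 at 9 mo, 16 at 15 mo, 17 at 24 mo and 18 at 28 mo. A different set of mice was killed at each age, and the RNA came from a snap-frozen, rinsed piece of the proximal part of the colon, with its muscle and nerve layers. The mice of each age were spread over 3 library batches, with 4 to 7 of them in each. The comparisons ask whether the transcript level of these genes differs between ages, whether it follows a straight line in age, and which of the genes vary together between mice of 1 age.

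Enteroendocrine cells are scattered, rare cells of the gut lining that sense nutrients and microbial products in the lumen and release hormones from their base. In the colon most of them are L cells, which make proglucagon products and peptide YY, and in part neurotensin or insulin-like peptide 5, or enterochromaffin cells, which make serotonin, with fewer D cells, which make somatostatin. Hormones are stored in dense-core granules whose matrix holds the acidic granin proteins, and the lineage is set by basic helix-loop-helix factors, first Neurog3 and then Neurod1, which bind DNA motifs called E-boxes. In RNA from whole tissue, fewer cells of a type and less RNA per cell cannot be told apart.

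The promoters of 6 of the genes are shown because their transcripts moved together, or apart from each other, in the results that follow. Each line holds 250 bases before and 50 after the transcription start that RefSeq gives in GRCm38.p6, read 5′ to 3′ on the strand of the gene. In the lines of the hormone genes, capitals mark E-boxes, CANNTG on either strand, a motif that reads the same on both. The windows lie at chr2:62483604-62483903 for Gcg, chr10:102490369-102490668 for Nts, chr4:103026679-103026978 for Insl5 and chr11:102107783-102108082 for Pyy, all on the minus strand.
Gcg: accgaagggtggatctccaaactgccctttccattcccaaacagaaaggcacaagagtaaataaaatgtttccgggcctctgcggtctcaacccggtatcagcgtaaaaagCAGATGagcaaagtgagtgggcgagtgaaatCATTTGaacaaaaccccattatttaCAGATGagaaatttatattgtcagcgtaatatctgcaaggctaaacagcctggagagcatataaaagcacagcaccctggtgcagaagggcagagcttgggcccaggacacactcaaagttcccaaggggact
Nts: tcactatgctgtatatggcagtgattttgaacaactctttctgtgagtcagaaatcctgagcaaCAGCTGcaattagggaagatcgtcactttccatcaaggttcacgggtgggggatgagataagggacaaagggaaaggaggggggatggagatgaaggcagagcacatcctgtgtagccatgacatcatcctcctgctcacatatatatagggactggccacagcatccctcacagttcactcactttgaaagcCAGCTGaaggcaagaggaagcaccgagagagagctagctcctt
Insl5: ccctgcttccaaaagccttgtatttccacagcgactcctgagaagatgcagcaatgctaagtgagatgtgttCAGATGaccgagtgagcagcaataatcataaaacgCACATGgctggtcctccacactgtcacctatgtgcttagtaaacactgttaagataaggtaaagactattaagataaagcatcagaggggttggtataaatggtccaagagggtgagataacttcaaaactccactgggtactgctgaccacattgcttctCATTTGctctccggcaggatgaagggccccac
Pyy: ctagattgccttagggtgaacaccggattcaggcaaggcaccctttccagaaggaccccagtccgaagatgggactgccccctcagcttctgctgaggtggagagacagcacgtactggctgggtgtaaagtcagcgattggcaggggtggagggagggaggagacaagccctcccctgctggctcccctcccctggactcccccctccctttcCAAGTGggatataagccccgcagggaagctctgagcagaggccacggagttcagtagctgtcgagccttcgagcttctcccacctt
The Gcg window held 3 E-boxes, the Nts window 2, the Insl5 window 3 and the Pyy window 1. CAGATG, an E-box of the type that Neurod1 binds, was present at 2 of the 3 positions in Gcg, at 1 of 3 in Insl5 and at none in Nts and Pyy. Of 32851 mouse promoters of the same length, 72.3% held CANNTG and 17.2% held CAGATG on either strand, so that the first motif is common and the second is not rare.

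The granin genes Chga (chr12:102554691-102554990, plus strand) and Chgb (chr2:132781392-132781691, plus strand) are shown with TGACG, the core of the cAMP response element, in capitals on either strand.
Chga: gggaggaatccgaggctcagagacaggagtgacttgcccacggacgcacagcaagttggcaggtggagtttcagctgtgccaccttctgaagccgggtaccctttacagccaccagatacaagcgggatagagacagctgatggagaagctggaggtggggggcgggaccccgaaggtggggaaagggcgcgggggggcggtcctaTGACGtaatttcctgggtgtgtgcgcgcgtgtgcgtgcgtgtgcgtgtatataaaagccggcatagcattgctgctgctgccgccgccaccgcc
Chgb: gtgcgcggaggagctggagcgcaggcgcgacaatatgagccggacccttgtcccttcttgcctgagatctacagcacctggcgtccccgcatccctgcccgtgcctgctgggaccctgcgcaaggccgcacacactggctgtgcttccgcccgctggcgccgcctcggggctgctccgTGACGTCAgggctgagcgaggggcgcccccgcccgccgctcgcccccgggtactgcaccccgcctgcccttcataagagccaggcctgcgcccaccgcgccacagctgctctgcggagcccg
Chga held TGACG at 1 position and Chgb at 2 overlapping positions on opposite strands, which together spell TGACGTCA. TGACG was present in 20.8% of the 32851 promoters. Among the other genes, the windows of Sst, Cck, Nts and Tph1 also held TGACG, and those of Gcg, Pyy, Insl5 and Neurod1 did not. The RefSeq start of Chgb lies 364 bases from the start of the GENCODE gene, the largest such distance among the 10.

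The count totals of single mice lay between 23026370 and 75838290 read pairs (median 35495123). The tissue was checked on colonocyte and goblet cell genes, with Car1 at no less than 8935 TPM (read pairs per base of transcript, scaled to the same sum in each mouse) and Muc2 at no less than 3720 TPM in any mouse. In 5 libraries, 2 at 24 mo and 3 at 28 mo, 5 pancreatic acinar genes summed to between 8.81 and 432 TPM, against at most 4.09 TPM in the others. Pancreatic islets also transcribe Gcg, Sst, Pyy and Chga, and the islet gene Ins2 was at 0 TPM in these 5 libraries. In 5 other libraries, 3 at 3 mo and 2 at 9 mo, the mean log2 CPM (counts scaled by library size) of 7 smooth muscle genes was at least 1 below the median of all mice. Without either set of 5 libraries, the same 6 of the 10 genes differed between 3 and 28 mo as with them.

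Levels spanned almost 2 orders of magnitude, on a scale (TPM) that divides by transcript length. Chgb was the most abundant of the 10, at a median of 299.8 TPM over the 83 mice, and exceeded Chga in every mouse. Chga (median 165 TPM) and Pyy (146 TPM) followed, with Chga the higher in 12 of 16 mice at 3 mo and 13 of 18 at 28 mo, so these neighbours overlapped. Gcg stood at 101 TPM, Sst at 75.3, Nts at 43.1, Tph1 at 24.0 and Insl5 at 11.9, whereas Neurod1 (4.60 TPM) and Cck (4.59 TPM) were the lowest, and at 15, 24 and 28 mo Cck was the higher of them in 7 of 16, 10 of 17 and 9 of 18 mice. Gcg exceeded Sst in 12 of 16 mice at 3 mo, 14 of 16 at 9 mo, 12 of 16 at 15 mo, 8 of 17 at 24 mo and 12 of 18 at 28 mo, so these neighbours overlapped at every age. Nts exceeded Tph1 in every mouse at 3, 9, 15 and 24 mo, whereas Tph1 was the higher in 10 of 18 mice at 28 mo. The lowest counts behind these levels were 17 read pairs for Insl5 and 27 for Cck, and those of Gcg, Tph1, Chga and Chgb were at least 700 in every mouse.

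**Figure D1:**
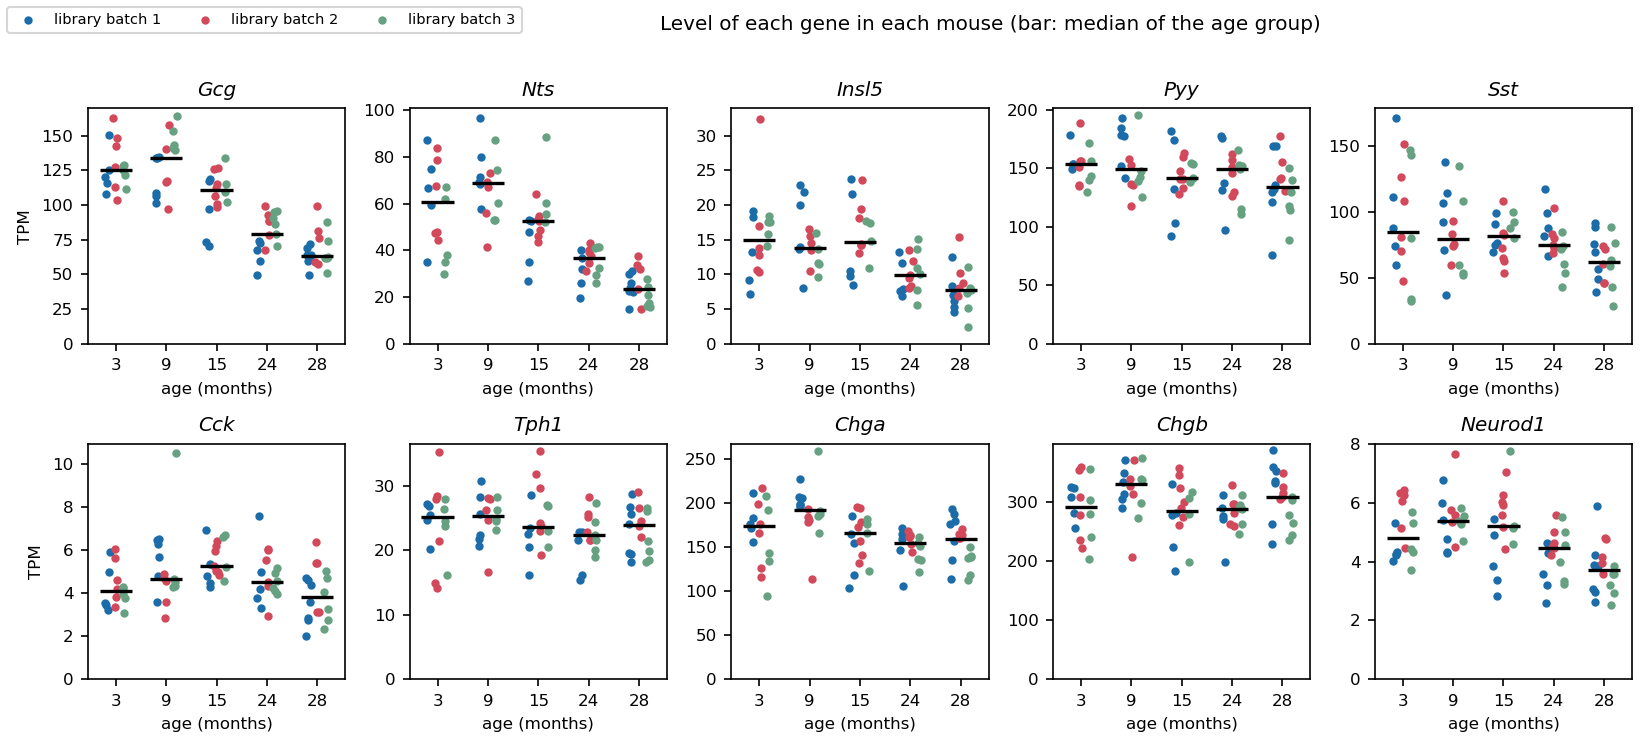
Transcript level (TPM, linear axes from 0) of each of the 10 genes in each of 83 mice by age in months; each point is a mouse, its colour the library batch and the bar the median of the age group. All 18 Gcg values at 28 mo lie below the lowest value at 3 mo, whereas the Chgb and Tph1 values of all ages overlap.

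Between 3 and 28 mo, transcripts of 5 of the 6 peptide hormones and of Neurod1 fell, and those of Tph1 and both granins did not differ past the threshold. Nts, Insl5 and Gcg changed most, with medians at 28 mo of 0.39, 0.52 and 0.505 times those at 3 mo, followed by Sst, Neurod1 and Pyy. In total 6 of 10 genes differed, all downwards, where 49.4% of the 18325 genes tested differed and 25.9% were lower (edgeR's quasi-likelihood test, Benjamini-Hochberg adjusted p below 0.1, as for all tests between ages below). The median log2 difference was -0.31 over the 10 genes and -0.01 over all genes tested. Over any of the ages, 9 of the 10 differed, all but Tph1, beside 54.9% of all genes.

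Gcg (ENSMUSG00000000394, chr2:62474530-62483650) encodes proglucagon, which L cells cut into the incretin glucagon-like peptide 1 and the intestinal growth factor glucagon-like peptide 2. Its lowest, median and highest levels were 104, 125 and 163 TPM at 3 mo, 97.2, 134 and 164 TPM at 9 mo, 70.6, 111 and 134 TPM at 15 mo, 49.6, 79.2 and 99.2 TPM at 24 mo, and 49.8, 63.2 and 99.2 TPM at 28 mo. The 3 mo and 28 mo groups did not overlap, and all 17 mice at 24 mo lay below the median of the 15 mo group. On the log2 scale Gcg fell by 0.93 from 3 to 28 mo (SE 0.07, adjusted p = 6.49e-19), with differences of -1.01, -0.87 and -0.92 within the 3 library batches. It was the only one of the 10 genes with a difference past the threshold between 9 and 15 mo (log2 difference -0.28 ± 0.07 SE, adjusted p = 0.0726), where 0.431% of all genes differed. This call was lost in 14 of 32 fits that left out 1 mouse of either age and without the 5 libraries poor in smooth muscle transcripts. It was also lost without each of the 3 batches, with no batch term and with only the mice of these 2 ages. Between 3 and 15 mo the difference was -0.20 ± 0.07 SE (adjusted p = 0.092), a call lost in 20 of 32 fits that left out 1 mouse. Other fits that lost it were those without batch 1, without batch 2, with no batch term and with no filter on low counts, among others.

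The largest difference of Gcg between neighbouring ages was that from 15 to 24 mo, which is also the longest interval. Over it Gcg fell by 0.48 (SE 0.07, adjusted p = 2.13e-06), and by 0.59, 0.42 and 0.48 within the batches. From 24 to 28 mo it fell by a further 0.24 (SE 0.07, adjusted p = 0.0228). Without the 5 libraries with acinar transcripts the last of these differences was -0.20 and missed the threshold (adjusted p = 0.121), while the difference between 3 and 28 mo was -0.88 (adjusted p = 6.55e-16). The last difference also missed the threshold without batch 1 (adjusted p = 0.103) and without batch 3 (adjusted p = 0.295). The course was not a straight line in age (departure, adjusted p = 0.00152), level between 3 and 9 mo and falling after that.

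Nts (ENSMUSG00000019890, chr10:102481756-102490486) encodes neurotensin, a gut peptide that aids fat uptake. Nts ranged from 29.8 to 87.4 TPM with a median of 60.7 at 3 mo, from 41.3 to 96.6 (68.8) at 9 mo, from 26.9 to 88.5 (52.7) at 15 mo, from 19.4 to 43.1 (36.7) at 24 mo, and from 14.9 to 37.4 (23.7) at 28 mo. Every mouse at 28 mo was below every mouse at 9 mo, and 13 of 18 were below the lowest at 3 mo. Its decrease between 3 and 28 mo was the largest among the 10 genes, -1.27 ± 0.13 SE on the log2 scale (adjusted p = 1.37e-13), and it was -1.40, -1.17 and -1.14 within the batches. Nts dropped by 0.62 between 15 and 24 mo (SE 0.13, adjusted p = 0.00096) and by another 0.55 between 24 and 28 mo (SE 0.13, adjusted p = 0.00298), and departed from a straight line (adjusted p = 0.000163). The difference of 0.27 ± 0.13 SE between 3 and 9 mo did not pass the threshold (adjusted p = 0.224).

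Insl5 (ENSMUSG00000066090, chr4:103017872-103026842) encodes insulin-like peptide 5, a relaxin-family hormone of colonic L cells that stimulates feeding and colon motility in mice. Its levels, as lowest, median and highest, were 7.17, 15.0 and 32.4 TPM at 3 mo, 8.11, 13.8 and 22.9 TPM at 9 mo, 8.53, 14.6 and 23.7 TPM at 15 mo, 5.53, 9.90 and 15.2 TPM at 24 mo, and 2.42, 7.80 and 15.4 TPM at 28 mo. The first 3 ages overlapped almost fully, and 17 of 18 mice at 28 mo were below the 3 mo median. Insl5 fell by 0.98 on the log2 scale from 3 to 28 mo (SE 0.16, adjusted p = 5.91e-07) and by 0.66 from 15 to 24 mo (SE 0.16, adjusted p = 0.00519). Within the batches the differences were -0.83, -0.66 and -1.37 for the first of these and -0.60, -0.73 and -0.63 for the second. The second missed the threshold when batch 2 was left out (log2 difference -0.62, adjusted p = 0.142).

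Pyy (ENSMUSG00000017311, chr11:102106676-102107832) encodes peptide YY, the other main L cell product, which curbs appetite and slows transit. Its medians were 153, 149.7, 141, 149 and 134 TPM at 3, 9, 15, 24 and 28 mo, and single mice lay between 75.6 and 195 TPM, with overlap between all ages. The log2 difference between 3 and 28 mo was -0.21 ± 0.08 SE (adjusted p = 0.0219), with -0.31, -0.07 and -0.29 within the batches. This call was lost without batch 1 (adjusted p = 0.117), without batch 3 (adjusted p = 0.15) and with pan-epithelial markers as a covariate (log2 difference -0.16, adjusted p = 0.111). Between 15 and 24 mo the difference was -0.03 ± 0.08 SE (adjusted p = 0.841), and no departure from a straight line passed the threshold (adjusted p = 0.628).

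Sst (ENSMUSG00000004366, chr16:23889573-23890958) encodes somatostatin, which D cells and some enteric neurons release and which restrains the secretion of other hormones. It was the most variable of the 10 genes between mice of 1 age, with a biological coefficient of variation of 0.319 in the fit. The lowest, median and highest levels were 32.4, 84.5 and 171 TPM at 3 mo, 37.2, 79.4 and 137 TPM at 9 mo, 53.4, 81.4 and 109 TPM at 15 mo, 42.9, 75.1 and 117 TPM at 24 mo, and 28.8, 62.1 and 91.2 TPM at 28 mo. All ages overlapped, and only 1 mouse at 28 mo was below the lowest at 3 mo, but none came near the highest values at 3 mo. Sst fell by 0.63 between 3 and 28 mo (SE 0.16, adjusted p = 0.000909) and within the batches by 0.57, 0.65 and 0.36. No neighbouring ages differed past the threshold, with -0.11 ± 0.16 SE between 15 and 24 mo (adjusted p = 0.718) and -0.35 ± 0.16 SE between 24 and 28 mo (adjusted p = 0.17). Without the 5 libraries poor in smooth muscle transcripts, however, Sst passed as lower between 24 and 28 mo and between 3 and 24 mo.

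Cck (ENSMUSG00000032532, chr9:121489824-121495694) encodes cholecystokinin, a hormone of the upper gut that is sparse in the colon. Its median was highest at 15 mo. The lowest, median and highest levels were 3.07, 4.09 and 6.05 TPM at 3 mo, 2.84, 4.68 and 10.5 TPM at 9 mo, 4.29, 5.25 and 6.97 TPM at 15 mo, 2.94, 4.51 and 7.60 TPM at 24 mo, and 2.01, 3.82 and 6.37 TPM at 28 mo. All 16 mice at 15 mo were above the 3 mo median. Cck rose by 0.41 on the log2 scale between 3 and 15 mo (SE 0.14, adjusted p = 0.0542), 1 of 2 genes past the threshold beside Gcg, where 7.75% of all genes differed, and the differences within the batches were 0.40, 0.30 and 0.59. It fell by 0.54 from 15 to 28 mo (SE 0.13, adjusted p = 0.000707), where 42.4% of all genes differed. Between 3 and 28 mo the difference of -0.13 ± 0.13 SE did not pass the threshold (adjusted p = 0.435). The departure from a straight line did (adjusted p = 0.00891), but not without batch 1 and not without batch 3. The rise was lost in each of the 3 fits without a batch (adjusted p up to 0.299), and without the 5 libraries poor in smooth muscle transcripts none of the 10 genes passed between 3 and 15 mo.

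Tph1 (ENSMUSG00000040046, chr7:46644641-46672537) encodes tryptophan hydroxylase 1, the rate-limiting enzyme of serotonin synthesis in enterochromaffin cells. Tph1 medians were 25.1, 25.3, 23.6, 22.4 and 23.9 TPM at 3, 9, 15, 24 and 28 mo, and the mice of each age spread between 14.2 and 35.5 TPM. The groups overlapped throughout, and Tph1 was the only one of the 10 genes that did not pass the test over all ages (adjusted p = 0.139). It did not pass between any pair of ages either, but it passed as lower at 24 than at 15 mo in a fit of these 2 ages alone (log2 difference -0.18, adjusted p = 0.086), and, with Chgb, as lower at 28 than at 9 mo without batch 2. Between 3 and 28 mo the log2 difference was -0.07 ± 0.08 SE (adjusted p = 0.545).

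Chga (ENSMUSG00000021194, chr12:102554969-102565028) and Chgb (ENSMUSG00000027350, chr2:132781278-132795079) encode chromogranins A and B, the acidic matrix proteins of dense-core granules. Chga medians were 174, 193, 166, 154 and 159 TPM from the youngest to the oldest group, within an overall range of 94.3 to 259 TPM. Chgb medians were 292, 331, 286, 288 and 309 TPM, within 184 to 389 TPM. Both stood highest at 9 mo. Chga rose by 0.24 from 3 to 9 mo (SE 0.08, adjusted p = 0.0746), the only one of the 10 genes to pass in this comparison, where 8.69% of all genes differed. The differences within the batches were 0.24, 0.04 and 0.44, and the call was lost in 9 of 32 fits that left out 1 mouse and without the 5 libraries poor in smooth muscle transcripts. From 9 mo Chga was lower by 0.38 at 24 mo (log2 difference -0.38 ± 0.08 SE, adjusted p = 0.000882) and by 0.39 at 28 mo (-0.39 ± 0.08 SE, adjusted p = 0.000112), and all 17 mice at 24 mo were below the 9 mo median. Chgb fell by 0.23 from 9 to 24 mo (SE 0.07, adjusted p = 0.0283) and did not differ past the threshold between 9 and 28 mo (-0.13 ± 0.07 SE, adjusted p = 0.146), and the call at 24 mo was lost without batch 1 and without batch 3. Between 3 and 28 mo the differences were -0.14 ± 0.08 SE for Chga (adjusted p = 0.142) and 0.06 ± 0.07 SE for Chgb (adjusted p = 0.54).

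Neurod1 (ENSMUSG00000034701, chr2:79452521-79456751) encodes the basic helix-loop-helix factor that drives the terminal differentiation of enteroendocrine cells. The lowest, median and highest levels were 3.70, 4.81 and 6.45 TPM at 3 mo, 4.31, 5.39 and 7.64 TPM at 9 mo, 2.84, 5.20 and 7.75 TPM at 15 mo, 2.60, 4.47 and 5.59 TPM at 24 mo, and 2.51, 3.71 and 5.90 TPM at 28 mo. Of the 18 mice at 28 mo, 17 lay below the 3 mo median and 9 below the lowest value at 3 mo. Neurod1 fell by 0.41 between 3 and 28 mo (SE 0.09, adjusted p = 9.61e-05), and by 0.29, 0.46 and 0.52 within the batches. It fell by 0.32 between 15 and 24 mo (SE 0.09, adjusted p = 0.0164), a call that was lost without batch 2 (adjusted p = 0.225) and without batch 3 (adjusted p = 0.147). Its course departed from a straight line (adjusted p = 0.0129), a call that was lost without batch 3.

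**Figure D2:**
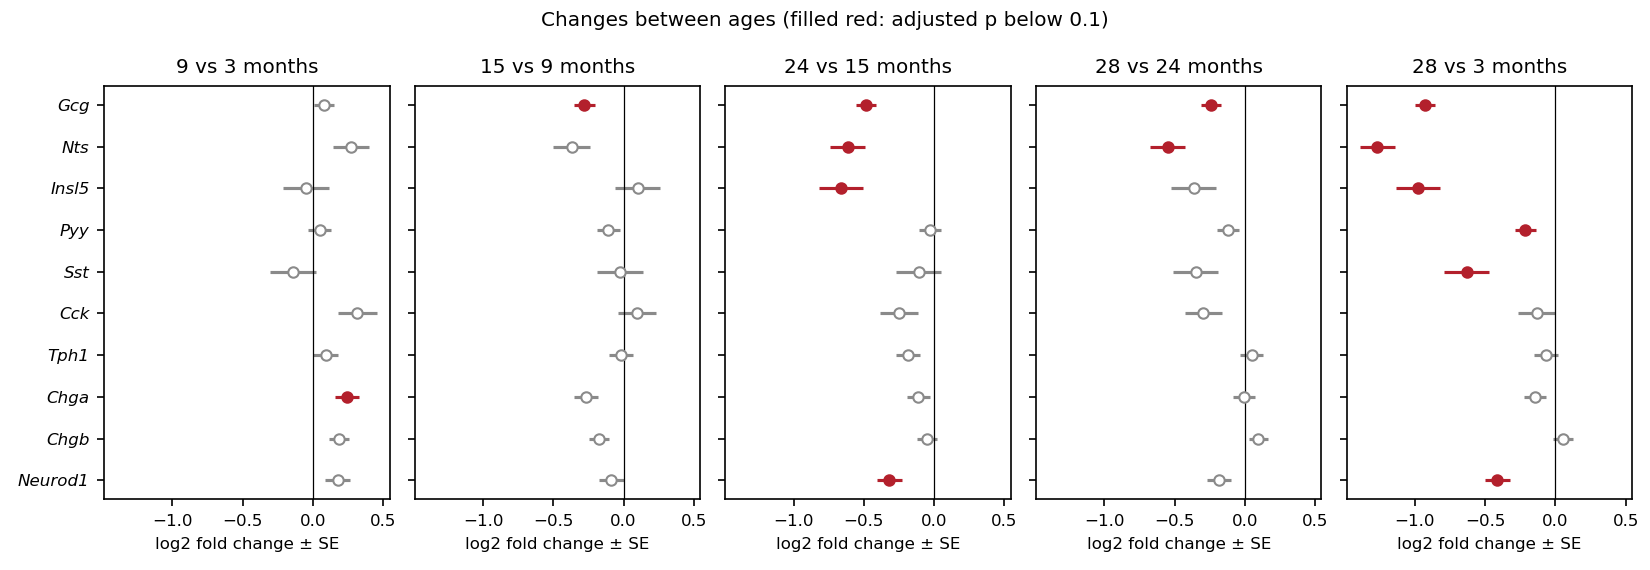
Log2 fold change between 4 pairs of neighbouring ages and between 3 and 28 mo for each of the 10 genes (older minus younger, edgeR estimate, bars ± SE); filled red points have an adjusted p below 0.1 and open grey points do not. Between 15 and 24 mo, Gcg, Nts, Insl5 and Neurod1 lie below 0, at -0.48, -0.62, -0.66 and -0.32, and Pyy lies at -0.03.

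Between 15 and 24 mo, the longest interval between neighbouring ages, 4 of the 10 genes passed the threshold (Gcg, Nts, Insl5 and Neurod1). All 4 were lower, where 13.5% of all genes differed and 7.24% were lower. The interval from 24 to 28 mo is the shortest, and changes per month were not compared. In the last interval, between 24 and 28 mo, 2 passed (Gcg and Nts), both lower, where 11.7% differed and 6.01% were lower. Over longer spans, 4 of 10 differed between 3 and 24 mo (34.5% of all genes), 6 between 9 and 24 mo (15.5%), 6 between 15 and 28 mo (42.4%) and 8 between 9 and 28 mo (40%), and each of these 24 differences was a decrease. These comparisons share groups of mice and are not independent of each other. A departure from a straight line was found for 7 of the 10 genes, all but Pyy, Sst and Tph1, and for 16.2% of all genes. Of these, 3 held without batch 1 (Gcg, Nts and Neurod1) and 1 without batch 3 (Nts).

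The summed level of the 6 hormone genes was 453 ± 61.9 TPM (SD, n = 16) at 3 mo, 457 ± 63.2 at 9 mo, 405 ± 52.5 at 15 mo, 351 ± 34.0 at 24 mo (n = 17) and 300.5 ± 48.3 at 28 mo (n = 18). Pyy made up 34.2% ± 4.19 of this sum at 3 mo and 44.7% ± 4.71 at 28 mo. Gcg made up 28.4% ± 4.26 and 22.6% ± 3.62, and Nts 12.6% ± 3.34 and 8.12% ± 2.21. The share of Sst was 20.4% ± 7.60 and 20.7% ± 4.53, and that of Insl5 3.45% ± 1.18 and 2.59% ± 0.749. Some enteric neurons also make somatostatin, and the part of Sst that came from the epithelium was not tested. Cck, the least of them, held 0.951% ± 0.217 and 1.30% ± 0.321. Shares of a sum depend on each other, and no test was made on them.

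**Figure D3:**
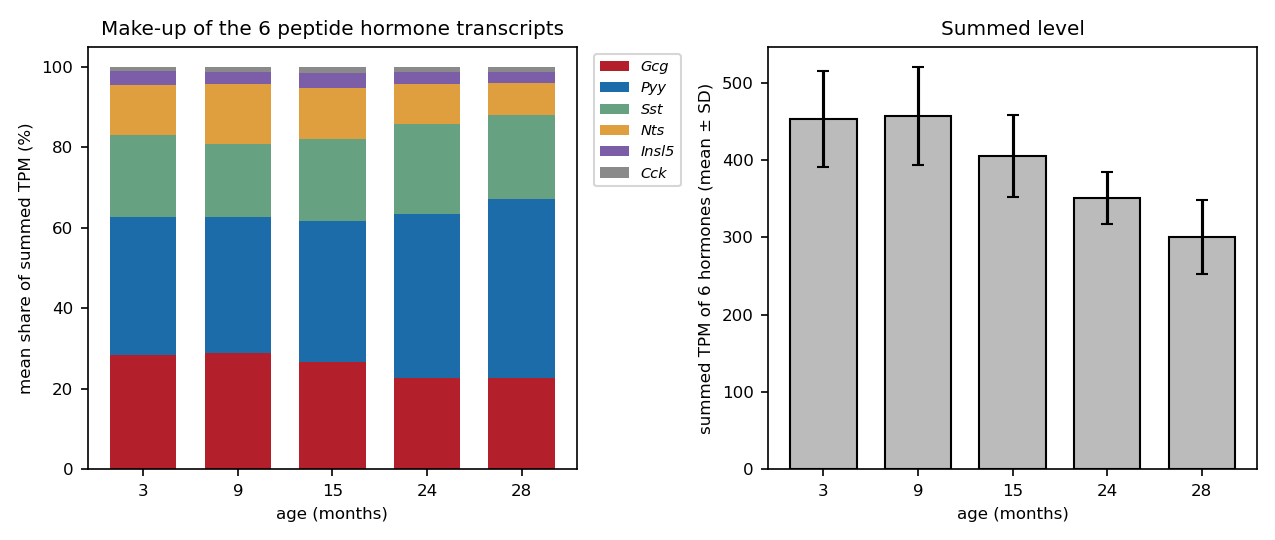
Left, mean share (%) of each hormone gene in the summed TPM of the 6 peptide hormone genes at each age in months; right, the summed TPM itself (mean ± SD over 16 to 18 mice). The share of Pyy is 34.2% at 3 mo and 44.7% at 28 mo, while the sum is 453 TPM and 300.5 TPM.

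Ratios between pairs of the 10 genes within a mouse compare their changes directly, without library scaling. For this, the log2 ratio of each of the 45 pairs was compared between ages by a two-sided permutation test of mice within batches with 100000 resamples, whose smallest p is 1e-05, a test added after the levels had been seen. Of the 45 ratios, 26 differed between 3 and 28 mo and 22 between 15 and 24 mo (Benjamini-Hochberg adjusted permutation p below 0.05 over the 45 pairs). The Gcg to Pyy ratio, which sets the L cell products against each other, was 0.97 ± 0.21 on the log2 CPM scale (SD, n = 16) at 3 mo and 0.25 ± 0.35 (n = 18) at 28 mo. This difference of -0.72 (adjusted permutation p = 3.75e-05) was -0.69, -0.81 and -0.63 within the batches, and 17 of 18 mice at 28 mo were below the 3 mo median. The Gcg to Chgb ratio decreased by 1.01 and the Nts to Chgb ratio by 1.31, and for each all 18 mice at 28 mo were below the 3 mo median (adjusted permutation p = 3.75e-05). No difference was detected between the changes of Gcg and Insl5, whose log2 ratio was 4.14 ± 0.44 at 3 mo and 4.17 ± 0.49 at 28 mo (difference 0.03, adjusted permutation p = 0.849), and the batches gave -0.17, -0.21 and 0.45. Nts decreased more than Gcg, with a log2 Gcg to Nts ratio of 1.46 ± 0.44 at 3 mo and 1.76 ± 0.34 at 28 mo, and all 18 mice at 28 mo above the 3 mo median (difference 0.30, adjusted permutation p = 0.0338). The Chga to Chgb ratio fell by 0.18 (from -0.80 ± 0.13 to -0.99 ± 0.07), a small difference that was larger than the spread between mice, with all 18 mice at 28 mo below the 3 mo median (adjusted permutation p = 6.43e-05).

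Between 15 and 24 mo the Gcg to Pyy ratio dropped by 0.44, with all 17 mice at 24 mo below the 15 mo median (adjusted permutation p = 9e-05). The Pyy to Insl5 ratio rose by 0.63 and was above the 15 mo median in all 17 (adjusted permutation p = 9e-05). Without library batch 2, 10 of the 45 ratios differed between these ages, in place of 22.

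Between mice of the same age and batch, the granins varied together with Tph1 and Neurod1, most pairs of L cell hormones varied together, and Sst was related to few of the others. Correlations were computed over 83 mice on log2 CPM after removal of age and batch means (two-sided permutation tests with 100000 resamples, adjusted over 45 pairs), and the points share the scaling of their libraries. Of the 45 pairs, 23 were positively correlated by both Pearson's r and Spearman's rho (adjusted permutation p below 0.05), each with the same sign in the 3 batches. Within single ages the r of 4 of these pairs was negative at its lowest, namely Cck with Nts (-0.22), Pyy with Chga (-0.21), Pyy with Cck (-0.07) and Nts with Chgb (-0.02). How many pairs of other genes reach this was not computed, so the 23 pairs cannot be set against genes in general. Chga and Chgb were the closest pair, with r = 0.91 and rho = 0.86 (adjusted permutation p = 4.5e-05 and 5e-05), and r = 0.89 without the 2 mice farthest from the median. Within the 3 batches their r was 0.93, 0.91 and 0.89. Tph1 followed both granins (r = 0.67 and rho = 0.57 with Chga, r = 0.67 and rho = 0.63 with Chgb), and so did Neurod1 (r = 0.58 and rho = 0.54 with Chga, r = 0.61 and rho = 0.57 with Chgb). For these pairs too the adjusted permutation p was 4.5e-05 for r and 5e-05 for rho.

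Among the L cell hormones, Pyy and Insl5 had r = 0.62 and rho = 0.65, and Gcg and Nts had r = 0.56 and rho = 0.53 (adjusted permutation p = 4.5e-05 and 5e-05 for each). Gcg also followed Pyy (r = 0.46, rho = 0.48), Cck (r = 0.46, rho = 0.40) and Insl5 (r = 0.42, rho = 0.43), with adjusted permutation p-values between 8.18e-05 and 0.00112. Nts and Insl5, in contrast, were not related past the threshold (r = 0.08, rho = 0.09, adjusted permutation p = 0.619 and 0.536). Nts was related to the granins as well, with r = 0.60 and rho = 0.60 to Chga. Without the 2 farthest mice the r of Pyy with Insl5 was 0.71, of Gcg with Nts 0.55 and of Nts with Chga 0.66, and within the batches these ranged from 0.54 to 0.79, from 0.29 to 0.74 and from 0.45 to 0.79. Sst was related to none of the other 9 past the threshold but Cck (r = 0.29, rho = 0.27, adjusted permutation p = 0.0145 and 0.0293), and its lowest r was -0.22, with Tph1 (rho = -0.18, adjusted permutation p = 0.0691 and 0.183).

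**Figure D4:**
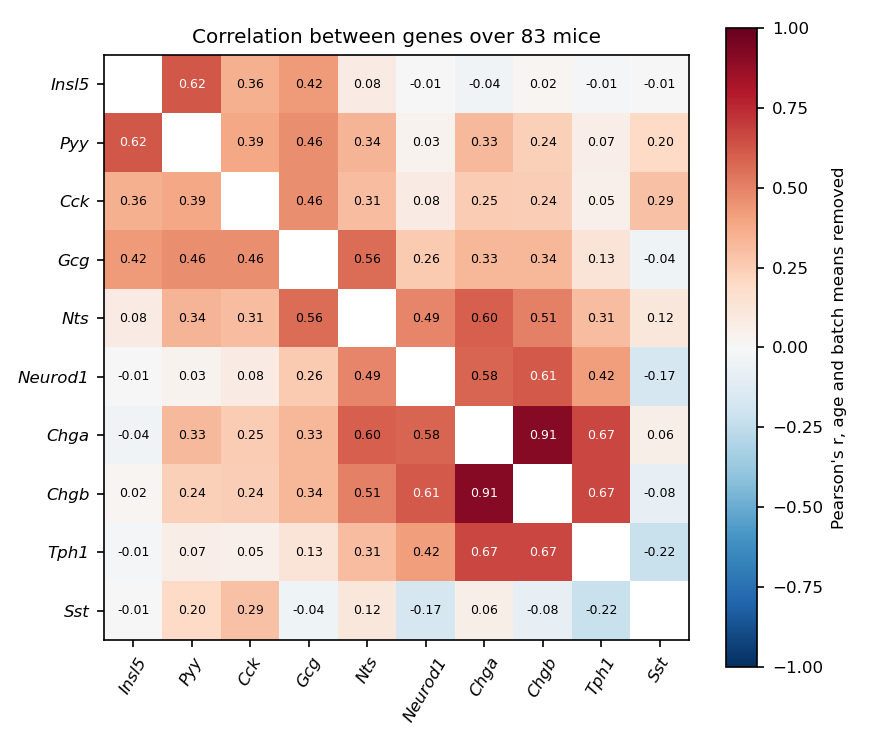
Pearson's r between each pair of the 10 genes over 83 mice, on log2 CPM after removal of age and batch means; red is positive, blue negative, and the number in each cell is r. Chga, Chgb, Tph1 and Neurod1 form a block with r from 0.42 to 0.91, and Sst has pale cells throughout, from -0.22 to 0.29.

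Marker scores of other layers and regions of the colon differed between mice, and some of the 10 genes were correlated with them. Scores were the mean log2 CPM of marker genes, and of 80 relations of a gene with a score 9 passed by both coefficients (two-sided permutation tests over 83 mice, adjusted over 80). Sst followed the score of 10 enteric neuron markers (r = 0.81, rho = 0.76) and that of 7 smooth muscle markers (r = 0.75, rho = 0.67), each with an adjusted permutation p = 0.000267. Without the 2 farthest mice these r were 0.77 and 0.69, and within the batches they lay between 0.77 and 0.83 and between 0.68 and 0.77. Within single ages they were lower in places, from 0.32 to 0.96 for the neuron score and from 0.18 to 0.86 for the muscle score. Of the 10 neuron markers, 2 were lower at 28 than at 3 mo, with a median log2 difference of -0.24, where 25.9% of all genes were lower. The neuron score ranged from 1.04 to 3.29 at 3 mo and from 1.43 to 2.82 at 28 mo, and the muscle score from 6.81 to 9.42 and from 8.39 to 9.28. With the neuron score as a covariate, Sst was lower at 28 than at 3 mo by 0.41 on the log2 scale (log2 difference -0.41, adjusted p = 0.000305). With the muscle score it was -0.80 (adjusted p = 1.29e-08), and without the 5 libraries poor in smooth muscle transcripts also -0.80 (adjusted p = 6.51e-06).

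Insl5 followed the score of 5 posterior Hox genes, which mark the distal colon (r = 0.70, rho = 0.68, adjusted permutation p = 0.000267). The r was 0.66 without the 2 farthest mice, 0.77, 0.68 and 0.65 within the batches, and between 0.65 and 0.76 within the ages. Pyy followed it more loosely (r = 0.41, rho = 0.41, adjusted permutation p = 0.0016 and 0.0034, r = 0.38 without the 2 farthest mice, and 0.50, 0.57 and 0.21 within the batches). Hoxb13, the most posterior gene of its Hox cluster, ranged from 3.18 to 53.3 TPM over the mice. Of the 5 Hox genes, 2 were lower at 28 than at 3 mo (median log2 difference -0.05), where 25.9% of all genes were lower. In the test over all ages 0 of the 5 passed, beside 54.9% of all genes. The Hox score was 2.15 ± 0.41 (SD, n = 16) at 3 mo and 1.99 ± 0.45 (n = 18) at 28 mo. With the Hox score as a covariate, Insl5 was -0.83 on the log2 scale at 28 against 3 mo (adjusted p = 6.07e-08).

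The score of 6 mast cell markers, a lineage that in mice also makes serotonin through Tph1, was related inversely to Tph1 (r = -0.43, rho = -0.37, adjusted permutation p = 0.0016 and 0.00848), to Chga (r = -0.36, rho = -0.33, adjusted permutation p = 0.0123 and 0.0296) and to Neurod1 (r = -0.32, rho = -0.31, adjusted permutation p = 0.0263 and 0.0388). Without the 2 farthest mice these r were -0.43, -0.33 and -0.33, and within batches they lay between -0.57 and -0.34, between -0.47 and -0.23 and between -0.56 and -0.14. All 6 markers tested rose between 3 and 28 mo, where 49.4% of all genes differed, Mcpt4 by 1.54 ± 0.38 SE on the log2 scale (adjusted p = 0.00058), and the score was -1.01 ± 0.51 at 3 mo and -0.22 ± 0.65 at 28 mo. The part of mast cells in the course of the 10 genes was not tested. Cck followed the score of 7 goblet cell markers (r = 0.35, rho = 0.32, adjusted permutation p = 0.0123 and 0.0362, r = 0.32 without the 2 farthest mice, 0.29, 0.37 and 0.40 within the batches). This score was highest at 15 mo, at 11.28 ± 0.19 (n = 16), against 11.10 ± 0.14 at 3 mo and 10.79 ± 0.15 at 28 mo. Sst was inversely related to the score of 6 colonocyte markers (r = -0.33, rho = -0.34, adjusted permutation p = 0.0244 and 0.0235, r = -0.33 without the 2 farthest mice), with -0.26, -0.0013 and -0.53 within the batches. The part of these layers in the hormone levels was not tested beyond the covariate fits.

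The genes most like each of the 10 across the 83 mice were sought among the 14962 genes whose mean CPM reached 1, leaving out the 10 genes themselves, as a description without a test. For Sst they were Grp (r = 0.88), Calcb (0.86) and Pcp4l1 (0.86), the first and second of which encode neuropeptides. For Insl5 they were Ggh (0.81), Sval1 (0.80) and Hoxb13 (0.78). For Pyy the closest was Ppy (0.69), which encodes pancreatic polypeptide of the same peptide family and lies beside Pyy on chromosome 11, followed by Dnlz (0.64) and Oit1 (0.63). Gcg and Nts had Bglap3 in common (0.59 and 0.67), along with Gstp2 (0.62) and Prdx6 (0.59) for Gcg and Defb37 (0.74) and Prap1 (0.64) for Nts. Chga and Chgb shared Enpp5 (0.61 and 0.57), and Chgb had Pcsk1 (0.57), the gene of prohormone convertase 1, among its closest 3. Tph1 was most like Cmah (0.72), Cldn2 (0.68) and B4galt4 (0.67). Cck was most like Mpnd (0.65), Saraf (0.64) and Gchfr (0.64), and Neurod1 most like Mfap3l (0.62), Tmem65 (0.60) and Ube2g1 (0.58). The closest remaining genes were Tspan3 (0.62) and Klk1 (0.61) for Chga, and Nxpe2 (0.61) for Chgb.

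Genes around the granins and hormones were examined in lists. Of 18 genes of the secretory granule and of prohormone processing, 10 were lower and 1 was higher at 28 than at 3 mo, with a median log2 difference of -0.30 against -0.01 over all genes, where 25.9% of all genes were lower. Resp18, a granule protein gene, fell from a median of 18.7 to 12.6 TPM (log2 difference -0.68 ± 0.10 SE, adjusted p = 5.47e-08). Ptprn2, which encodes the granule membrane protein phogrin, fell by 0.39 (SE 0.07, adjusted p = 2.09e-06). Pcsk1, whose product cuts proglucagon, fell by 0.35 (SE 0.06, adjusted p = 8.04e-06). The single gene that rose was Syt7, a calcium sensor of exocytosis (0.20 ± 0.05 SE, adjusted p = 0.00101). Cpe, Pam and Scg5, whose products trim, amidate or chaperone peptide hormones, did not pass (log2 differences of 0.17, -0.05 and -0.02, adjusted p = 0.225, 0.37 and 0.878).

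Among 20 further transcription factors of the lineage, 5 were lower and 1 was higher at 28 mo, with a median of -0.11, beside 25.9% lower and 49.4% called in either direction among all genes. Nkx2-2, which is needed for several enteroendocrine fates, rose by 0.54 (SE 0.12, adjusted p = 0.000193), from a median of 2.44 to 3.75 TPM, in the opposite direction to Neurod1. Pax6, an activator of the proglucagon gene, fell by 0.33 (SE 0.11, adjusted p = 0.0124) at a low level, with medians of 0.220 and 0.185 TPM. Foxa1, which takes part in the L cell program, fell by 0.11 (SE 0.04, adjusted p = 0.0489). Neurog3, which starts the lineage upstream of Neurod1, had medians of 1.79 and 2.15 TPM and did not pass (0.21 ± 0.13 SE, adjusted p = 0.18), nor did Insm1 (-0.08 ± 0.08 SE, adjusted p = 0.405).

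Of 14 sensors of luminal nutrients and microbial products, 4 were lower and 1 was higher, with a median of -0.09, against the same 25.9% lower and 49.4% called among all genes. The 3 with the strongest evidence over all ages were Ffar3, Ffar1 and Trpa1. Ffar3, a receptor of short-chain fatty acids, fell by 0.81 (SE 0.13, adjusted p = 7.91e-07), from a median of 2.69 to 1.47 TPM. Ffar1, a receptor of long-chain fatty acids on L cells, fell by 1.03 (SE 0.16, adjusted p = 2.33e-07), and Trpa1, an irritant channel of enterochromaffin cells, by 0.46 (SE 0.15, adjusted p = 0.00755). Ffar2, the other receptor of short-chain fatty acids, differed by 0.01 ± 0.06 SE (adjusted p = 0.948). Of 9 other gut hormone genes that passed the filter on low counts, out of 14, 3 were lower and none was higher, with a median of -0.05, again beside 25.9% lower among all genes. Iapp, which encodes amylin, fell by 1.83 (SE 0.21, adjusted p = 5.84e-11), from a median of 5.45 to 1.53 TPM, Ghrl (ghrelin) by 0.91 (SE 0.20, adjusted p = 0.000189) and Sct (secretin) by 0.37 (SE 0.10, adjusted p = 0.00167). Ppy, the neighbour of Pyy, did not pass (0.15 ± 0.16 SE, adjusted p = 0.472).

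**Figure D5:**
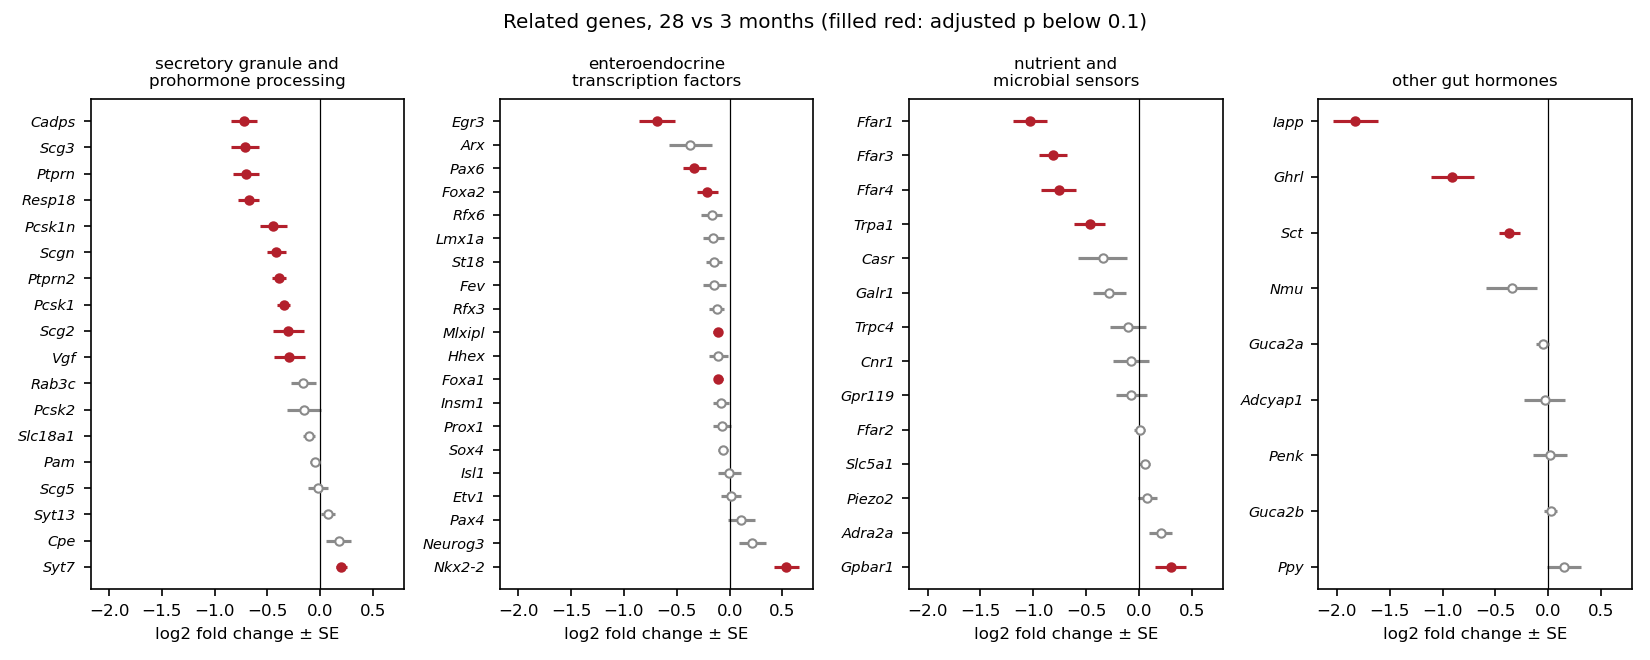
Log2 fold change at 28 against 3 mo (edgeR estimate, bars ± SE) of every tested gene in 4 lists related to the 10 genes; filled red points have an adjusted p below 0.1. In the list of granule and processing genes 10 of the 18 genes are red and lie below 0, in that of transcription factors Nkx2-2 lies at 0.54 and Pax6 at -0.33, and among the other hormones Iapp lies at -1.83.

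Among genes of serotonin transport, breakdown and reception, 2 of 12 tested genes passed at 28 against 3 mo, both higher, and the median was -0.06, where 49.4% of all genes passed. Slc6a4, which encodes the serotonin reuptake transporter of the epithelium, rose by 0.79 (SE 0.09, adjusted p = 6.57e-12), and all its values at 28 mo, from 3.93 to 7.46 TPM, were above those at 3 mo, from 2.19 to 3.46 TPM. Maob, a monoamine oxidase, rose by 0.39 (SE 0.05, adjusted p = 3.57e-09), whereas Maoa, the other oxidase, did not pass (0.01 ± 0.06 SE, adjusted p = 0.949). Among 13 hormone receptors that passed the filter, out of 19, 2 were higher and 2 were lower, with a median of 0.10, beside the same 49.4%. Glp2r, the receptor of the proglucagon product that acts on the gut itself, rose by 0.32 (SE 0.07, adjusted p = 0.000223), while Gcg fell. Sstr2, a somatostatin receptor, fell by 0.37 (SE 0.11, adjusted p = 0.0056), and Sort1, the neurotensin-binding receptor sortilin, by 0.18 (SE 0.04, adjusted p = 0.000531).

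Markers of other epithelial cells also differed in the same mice. Of 7 goblet cell markers 6 were lower and 1 was higher at 28 than at 3 mo (median log2 difference -0.27), 5 of 5 tested tuft cell markers were lower (-0.49), 4 of 8 pan-epithelial markers were lower (-0.09) and 2 of 6 colonocyte markers were lower (-0.05), where 25.9% of all genes were lower. The pan-epithelial score was 10.12 ± 0.09 (SD, n = 16) at 3 mo and 9.99 ± 0.08 (n = 18) at 28 mo. With this score as a covariate, Gcg was -0.92 (adjusted p = 3.38e-17), Nts -1.34 (adjusted p = 4.87e-14), Insl5 -0.91 (adjusted p = 8.24e-06) and Neurod1 -0.44 (adjusted p = 0.000148) on the log2 scale at 28 against 3 mo.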

How the data were processed

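RNA of the proximal colon of 83 mice was sequenced as stranded polyA libraries (100 bp paired-end reads). The authors trimmed reads with cutadapt 2.8 and PrinSeq Lite, mapped the rest to GRCm38 with HISAT2 2.1.0, kept uniquely mapped reads with SAMtools 1.9 and counted properly mapped pairs per gene, by strand, with featureCounts of Subread 2.0.1. The deposited values are these raw counts per gene and mouse, in 37764 genes, and the depth was 23026370 to 75838290 counts per mouse, so that the lowest counts of the genes described (17 for Insl5) carry the widest counting error.

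Counts were tested with edgeR 4.0.16 in R 4.3.3 (quasi-likelihood, TMM scaling, age group with library batch as covariate, filterByExpr by age group). The fit covered 18325 genes, and p-values were adjusted over all of them with a threshold of 0.1. TPM used merged exon lengths of GENCODE vM21, known for 37652 genes. Correlations and ratios used log2 CPM (prior count 2) and permutation tests with 100000 resamples and a threshold of 0.05. The edgeR script was tested on simulated data.

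The 10 genes and the related lists were chosen with earlier results of these data known. From each list at most 3 genes with the smallest p over all ages were named, together with those that bear on one of the 10 genes, and a list of peptide-degrading enzymes is not reported here. The ratios, the relations to marker scores and the fits without the libraries that stand apart were added after the levels had been seen. The alternatives were other filters, thresholds, scalings, covariates, DESeq2 1.42.0, a replicate block, and leaving out each batch or mouse. No same-age pair of libraries was closer than counting noise allows (649 pairs, lowest chi-square per gene 10.9). The labels give no cage or litter, so the p-values measure the spread between these mice.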

Additional observations from a re-analysis of the deposited data

How the results depend on the processing

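The counts of genes past the threshold stayed within 1.5 times of those reported under all alternatives, each mouse left out included, between 3 and 24 mo (3 to 5 of 10), 3 and 28 mo (5 to 7), 9 and 24 mo (4 to 7), 15 and 28 mo (6 to 7) and over any age (6 to 10). Those between the younger ages did not, and the cause was not tested. Between 3 and 9 mo (1 gene) there were 0 at an adjusted p below 0.05, with no filter, without batch 1, without batch 3, without the libraries poor in smooth muscle transcripts and with only the mice of the 2 ages, against 2 with DESeq2, with at least 10 counts in every mouse and without batch 2. Between 3 and 15 mo (2 genes) there were 0 at an adjusted p below 0.05, without batch 1, without batch 2 and without the libraries poor in smooth muscle, and 1 with no filter, with at least 10 counts, with no batch term, without batch 3, and with the pan-epithelial or the smooth muscle score as covariate, where in the last fit the gene was Sst and neither Gcg nor Cck passed. Between 9 and 15 mo (1 gene) there were 0 at an adjusted p below 0.05, with no batch term, without batch 1, 2 or 3, without the libraries poor in smooth muscle and with only the mice of the 2 ages. At an unadjusted p below 0.05, edgeR gave 4, 2 and 4 genes in these comparisons, and the share of all genes at that p was not counted. Leaving out 1 mouse gave 0 to 2, 1 to 2 and 0 to 2 genes.

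Other counts moved when libraries were left out. Without batch 1, 5 genes passed between 9 and 28 mo in place of 8, 1 between 24 and 28 mo in place of 2, and 3 departed from a straight line in place of 7, and without batch 3 this last count was 1. Without batch 2, or without 1 of the mice at 9 mo, all 10 genes passed between 9 and 28 mo, Tph1 and Chgb in addition. The test over all ages was passed by all 10 in 4 of the 83 fits without 1 mouse. Without batch 2, 2 genes passed between 15 and 24 mo in place of 4, and 10 ratios in place of 22. Without the libraries with acinar transcripts 1 gene passed between 24 and 28 mo, and without those poor in smooth muscle 3 did, Sst in addition. Of the 45 correlations 13, 7 and 3 were positive past the threshold within batches 1, 2 and 3 alone, and 1 was negative in batch 1. The direction turned for differences that had not passed, namely Tph1 between 3 and 28 mo without the libraries poor in smooth muscle (0.0267), Pyy (0.0039) and Sst (0.0706) between 15 and 24 mo without batch 3, and Chgb between 15 and 24 mo without batch 2 (0.0101).

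Replicate numbers recur at every age but did not pair the mice: over 161 same-numbered pairs the median correlation of deviations was 0.01, and 3 of 83 mice correlated best with their own number. With the replicate number as a block, 6 genes passed between 3 and 28 mo, and the count between 3 and 9 mo was 2 in place of 1. Insl5 and Cck had the fewest counts, and depth limits them most.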
